A study of Mus musculus with 714 samples.

Results

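H19, Meg3 and Grb10 are imprinted genes, read in mouse mainly from the allele inherited from the mother, and their levels were followed here in single cells of the developing uterine epithelium. The 3 genes were taken by name, as 3 of the 12479 gene rows of the deposited table, and cells of newborn pups with 3 or more counts of Upk3a, a uroplakin of the bladder lining, were described apart. The study sorted CD326+ cells (CD326 is EpCAM, an epithelial surface protein) from uteri of ICR mice, an outbred strain, at postnatal day (pnd) 0, 7, 14, 28 and 56. Each cell's RNA was amplified and counted by CEL-seq, a method that copies RNA in vitro and sequences transcripts from their 3′ end. The labels name no treatment and no mutant allele, and the ages are the only groups. Of the 714 cells with data, 24.2% came from pnd0, 37.4% from pnd7, 24.2% from pnd14, 56 cells from pnd28 and 45 from pnd56. The labels name no animal, litter or pool, so each age is 1 sample: levels are given with 95% intervals that cover counting error only, and no comparison between ages has a test.

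The H19 transcript is a long non-coding RNA that shares an imprinting control region with the growth factor gene Igf2 and is the host of the microRNA miR-675. It is abundant in embryonic tissues and declines in most of them after birth. Meg3, also a long non-coding RNA, comes from the imprinted domain of Dlk1 and Dio3 and has been linked to the Polycomb repressive complex PRC2 and to p53. Grb10 is an adaptor protein that binds the activated insulin and IGF1 receptors and restrains their signal, and mice lacking the maternal copy are born large. Counts of a gene do not tell the parental alleles apart, so nothing below bears on which allele was read.

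The microRNA pair cut from H19 is printed here because it is the best known product of that RNA; mature microRNAs were not measured. Both lie on chromosome 7 of the RefSeq build GRCm38.p6, minus strand, inside an exon of 3 of the 7 H19 transcripts of GENCODE M21. Capitals mark the seed, bases 2 to 8.
mmu-miR-675-5p (chr7:142577112-142577133): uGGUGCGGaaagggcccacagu
mmu-miR-675-3p (chr7:142577078-142577099): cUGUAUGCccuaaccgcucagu
The seeds differ from each other, and neither is the seed of any other of the 1738 mature mouse microRNAs of the table.

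The RefSeq promoter table (GRCm38.p6, 250 bases before to 50 after the start) matched 2 of the 3 genes, Meg3 and Grb10, each with 2 start sites, of which the first is printed. They are shown because both genes were at lower levels at pnd14 than at pnd7, and the letters differ in composition. Capitals mark motifs searched on both strands, which were the cAMP response element TGACGTCA, the TATA box TATAAA, the CCAAT box, the GC box GGGCGG and TGCCGC, the letters bound by ZFP57, a zinc finger protein that guards imprints.
Meg3 (chr12:109540746-109541045, plus strand): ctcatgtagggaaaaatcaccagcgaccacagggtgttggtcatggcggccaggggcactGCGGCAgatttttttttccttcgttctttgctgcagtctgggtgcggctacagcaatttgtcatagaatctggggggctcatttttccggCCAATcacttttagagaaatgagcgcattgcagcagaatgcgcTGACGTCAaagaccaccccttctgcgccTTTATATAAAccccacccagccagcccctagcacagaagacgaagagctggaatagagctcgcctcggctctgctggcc
Grb10 (chr11:12037371-12037670, minus strand): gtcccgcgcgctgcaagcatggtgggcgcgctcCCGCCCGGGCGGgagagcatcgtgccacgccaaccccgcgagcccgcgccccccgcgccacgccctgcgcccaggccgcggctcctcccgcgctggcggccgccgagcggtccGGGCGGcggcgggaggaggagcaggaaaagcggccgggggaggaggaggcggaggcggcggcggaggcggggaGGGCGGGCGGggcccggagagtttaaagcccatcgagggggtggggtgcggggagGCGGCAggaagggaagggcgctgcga
The Meg3 promoter held 13 CpG sites and 53.7% GC, and 62.1% of the 32851 promoters in the table held fewer CpG sites. It had a cAMP response element beginning 57 bases before the start, a TATA box 25 bases before it (with the same letters on the other strand at 29 bases, overlapping it), a CCAAT box at 100 bases and, on the other strand, a ZFP57 motif at 190 bases. The Grb10 promoter held 45 CpG sites and 80% GC, more CpG sites than 98.1% of promoters, with 5 GC boxes, of which a pair overlaps each other, and a ZFP57 motif 25 bases after the start. Of all promoters, 1.79% held the cAMP response element, 13.6% the TATA box, 37.4% the CCAAT box, 35.7% the GC box and 11.6% the ZFP57 letters.

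The cells' depth and identity set the limits of these values. Totals per age were 582615, 732957, 354047, 96248 and 81894 counts at pnd0, 7, 14, 28 and 56, with medians of 3037, 2492, 1782, 1600 and 1670 counts per cell. Krt18, an epithelial keratin, had a count in 78.6% to 98.9% of the cells of each age, and Epcam, which encodes the protein sorted on, in 28.6% to 53.3%. Cells with 5 or more counts of smooth muscle or of stroma markers, called marker cells below, numbered 8, 12, 44, 15 and 2 at the 5 ages, or 4.62%, 4.49%, 25.4%, 26.8% and 4.44% of cells. Cell titles are numbered, and runs of 96 consecutive numbers, called blocks here, each held cells of 1 age, so block and age cannot be told apart.

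H19 was highest at birth and lower at each age as far as pnd28, and none of the 45 adult cells held a count. In counts per 10000 of the age's total, the unit of every level below, it was at 5.97 [5.36, 6.63] at pnd0 and 1.76 [1.47, 2.09] at pnd7. At pnd14 it was at 0.960 [0.665, 1.34] and at pnd28 at 0.312 [0.0643, 0.911], and at pnd56 0 of 81894 counts allow up to 0.366 (3 counts, the floor used throughout). The values at pnd28 and pnd56 rest on 3 and 0 counts, both within that floor, and were not compared.

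H19 was 3.39-fold lower at pnd7 than at pnd0 (log2 ratio −1.76 [−2.07, −1.47]), which made it 1 of the 7.61% of 5953 measured genes (20 or more counts over both ages) that were at least 2-fold lower, against 4.94% at least 2-fold higher. At pnd14 it was 1.83-fold lower than at pnd7 (−0.87 [−1.46, −0.32]). At pnd28 it was 3.08-fold lower than at pnd14 by 3 against 34 counts, with an interval that reaches no change (−1.62 [−3.97, 0.05]). From end to end it was at least 16.3-fold lower at pnd56 than at pnd0, with the count of 0 set to the floor over that age (log2 bound −4.03). That bound was −2.59 without the second pnd0 block and −3.095 without the Upk3a cells described below.

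Few cells carried most of the H19. A count was found in 35 cells at pnd0 (20.2%), 41 at pnd7 (15.4%), 6 at pnd14 (3.47%), 2 at pnd28 (3.57%) and none at pnd56, where 0 of 45 allows up to 6.67% (3 cells). With every cell thinned to 1500 counts, leaving out 9, 13, 60, 23 and 20 shallower cells, the shares were 14.9%, 11.1%, 1.58%, 0% and 0%. The share of cells with a count thus had overlapping intervals at pnd7 ([11.3, 20.2]%) and pnd0 ([14.5, 27]%) and was lower at pnd14 ([1.28, 7.40]%). The mean per positive cell was 3.15 counts at pnd7 against 9.94 at pnd0. At pnd0 the 10 cells with 5 or more counts held 306 counts of H19, and 3 cells alone held at least 50% of that age's. The highest single cell had 85 counts at pnd0, 34 at pnd7, 20 at pnd14 and 2 at pnd28.

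The blocks of an age differed in H19 as well. The pnd0 blocks were at 2.20 and 9.85, the pnd7 blocks at 1.48, 1.12 and 2.46, and the pnd14 blocks at 1.998, 0 and 0.456 counts per 10000. The lower pnd0 block thus lay below the highest pnd7 block, and the pnd14 and pnd7 ranges overlapped. Without the higher pnd0 block the pnd7 over pnd0 log2 ratio was −0.32 [−0.76, 0.13], within counting error, and without the lower one it was −2.485. The pnd14 over pnd7 log2 ratio was −2.46 without the first pnd14 block, and it was within counting error without the third pnd14 block (−0.39 [−1.04, 0.22]) or the third pnd7 block (−0.45 [−1.11, 0.18]). By share of cells the blocks were at 13.8% to 17.4% for pnd7 and at 14.8% and 25.9% for pnd0.

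**Figure D1:**
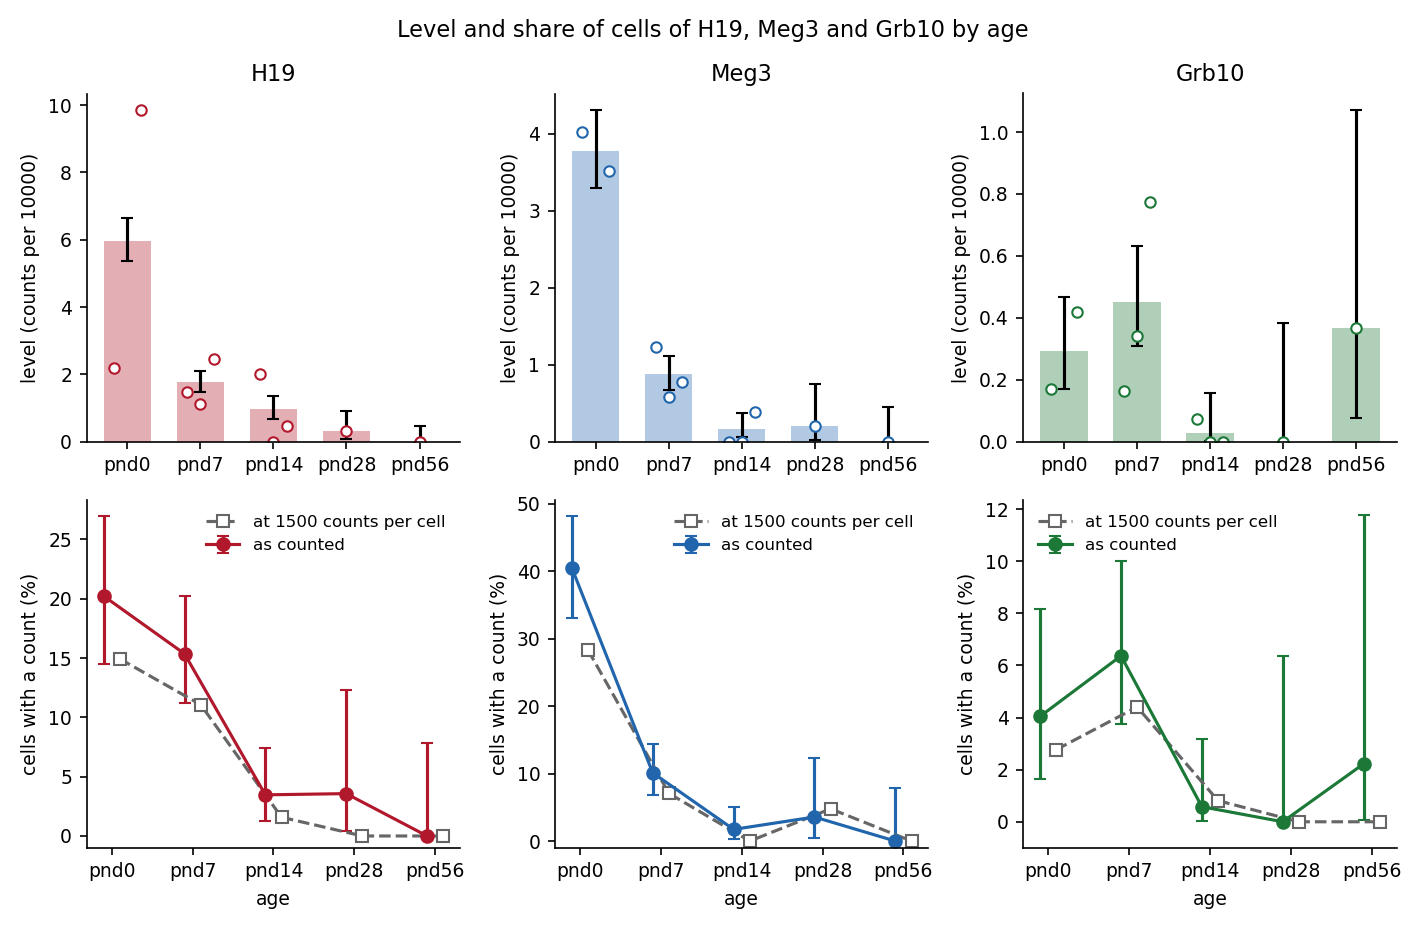
Levels of H19, Meg3 and Grb10 in counts per 10000 by age (upper row; bars, all cells of an age; error bars, exact 95% Poisson intervals; open circles, blocks of 96 title numbers) and the percentage of cells with a count (lower row; filled circles, as counted with exact 95% binomial intervals; open squares, at 1500 counts per cell). H19 and Meg3 are highest at pnd0, at 5.97 and 3.78, and at 0 at pnd56, while Grb10 is at 0.450 at pnd7 and 0.0282 at pnd14.

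Meg3 was found in more of the newborn cells and was lower at pnd7 and lower again at pnd14. It was at 3.78 [3.29, 4.31] counts per 10000 at pnd0, 0.873 [0.672, 1.11] at pnd7, 0.170 [0.0622, 0.369] at pnd14 and 0.208 [0.0252, 0.751] at pnd28. At pnd56 it was at 0, which allows up to 0.366, and the counts behind these values were 220, 64, 6, 2 and 0. The level at pnd28 did not differ from that at pnd14 beyond counting error (log2 ratio 0.29 [−3.05, 2.78]), and pnd56 and pnd28 were not compared.

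At pnd7 Meg3 was 4.33-fold lower than at pnd0 (log2 ratio −2.11 [−2.54, −1.71]), and at pnd14 it was 5.15-fold lower than at pnd7 (−2.37 [−3.86, −1.17]). For pnd14 over pnd7, 14.3% of 5553 measured genes were at least 2-fold lower and 10.7% at least 2-fold higher. From end to end Meg3 was at least 10.3-fold lower at pnd56 than at pnd0. All pnd14 blocks, at 0, 0 and 0.391, lay below all pnd7 blocks, at 1.23, 0.584 and 0.774, and those lay below both pnd0 blocks, at 4.03 and 3.52 counts per 10000. Without the first pnd14 block the pnd14 over pnd7 log2 ratio was −1.67 [−3.17, −0.47].

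A Meg3 count was found in 70 cells at pnd0 (40.5%), 27 at pnd7 (10.1%), 3 at pnd14 (1.73%), 2 at pnd28 (3.57%) and 0 of 45 at pnd56. At 1500 counts per cell the shares were 28.3%, 7.07%, 0%, 4.78% and 0%. Here the share of cells itself was lower at pnd7 than at pnd0, with intervals that do not overlap ([6.77, 14.4]% against [33.1, 48.2]%), while the mean per positive cell was 2.37 counts at pnd7 against 3.14 at pnd0. At pnd0, 14 cells were needed for 50% of the Meg3 counts, against 3 for H19, and the highest cell, with 24 counts, was a stroma marker cell.

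Grb10 followed another course. It was at 0.292 [0.170, 0.467] counts per 10000 at pnd0 and 0.450 [0.310, 0.632] at pnd7. At pnd14 it was at 0.0282 [0.000715, 0.157], at pnd28 at 0, which allows up to 0.312, and at pnd56 at 0.366 [0.0756, 1.07]. The counts were 17, 33, 1, 0 and 3, and the 3 adult counts lay in a single cell.

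The pnd7 over pnd0 log2 ratio of Grb10 was 0.63 [−0.26, 1.56], within counting error. It was −0.25 [−1.49, 0.93] without the third pnd7 block and 1.36 [0.30, 2.55] without marker cells, so its direction was not settled. At pnd14 it was 15.9-fold lower than at pnd7 by 1 count against 33, with a wide interval (log2 [−9.34, −1.42]). The lone pnd14 count gave one block 0.0740 and left the other two at 0, all below the pnd7 blocks at 0.164, 0.341 and 0.774. A Grb10 count was found in 7 cells at pnd0 (4.05%), 17 at pnd7 (6.37%), 1 at pnd14 (0.578%), 0 at pnd28 and 1 at pnd56 (2.22%). Level and share at pnd56 rest on that 1 cell, and the pnd56 over pnd0 log2 ratio was 0.33 [−2.08, 2.12].

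The time of loss was taken as the first pair of neighbouring ages whose ratio has an interval wholly below 0.5. H19 and Meg3 met that at pnd7 against pnd0, with upper bounds of 0.362 and 0.307, and Meg3 met it again at pnd14 against pnd7 (0.446). Grb10 first met it at pnd14 against pnd7, with an upper bound of 0.375. Each of these calls but that of Meg3 at pnd7 was lost in some of the recomputed ratios. H19 did not meet it at pnd7 without the second pnd0 block or without the Upk3a cells described below. Meg3 at pnd14 did not meet it without the first or the second pnd14 block, without the first pnd7 block or without marker cells called at 3 counts, with upper log2 limits of −0.47, −0.87, −0.77 and −0.91. Grb10 at pnd14 did not meet it without the third pnd14 block, without the third pnd7 block or without marker cells called at 3 counts, with upper log2 limits of −0.60, −0.33 and −0.78. For pnd28 over pnd14, 23.2% of 3785 measured genes were at least 2-fold lower and 11.9% at least 2-fold higher, and of the 3 genes H19 alone had the counts to be measured there. For pnd56 over pnd0 these shares were 27.4% and 10.3% of 4725 genes, with H19 and Meg3 among the lower ones and Grb10 between. The median log2 ratio of all measured genes was −0.03, −0.10, −0.23 and −0.34 for pnd7 over pnd0, pnd14 over pnd7, pnd28 over pnd14 and pnd56 over pnd0.

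A count of any of the 3 genes was found in 56.1% of cells at pnd0, 26.97% at pnd7, 5.78% at pnd14, 7.14% at pnd28 and 2.22% at pnd56. Most positive cells had a single one of them. At pnd0, 13 cells had both H19 and Meg3, 22 had H19 without Meg3 and 57 had Meg3 without H19, so Meg3 was found in 37.1% of cells with H19 and 41.3% of cells without it. No pnd0 cell had both H19 and Grb10, but only 7 pnd0 cells held Grb10, too few to show that the genes avoid each other. At pnd7 6 cells had both, with Grb10 in 14.6% of cells with H19 and 4.87% of cells without it, at median depths of 2898 and 2468 counts.

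**Figure D2:**
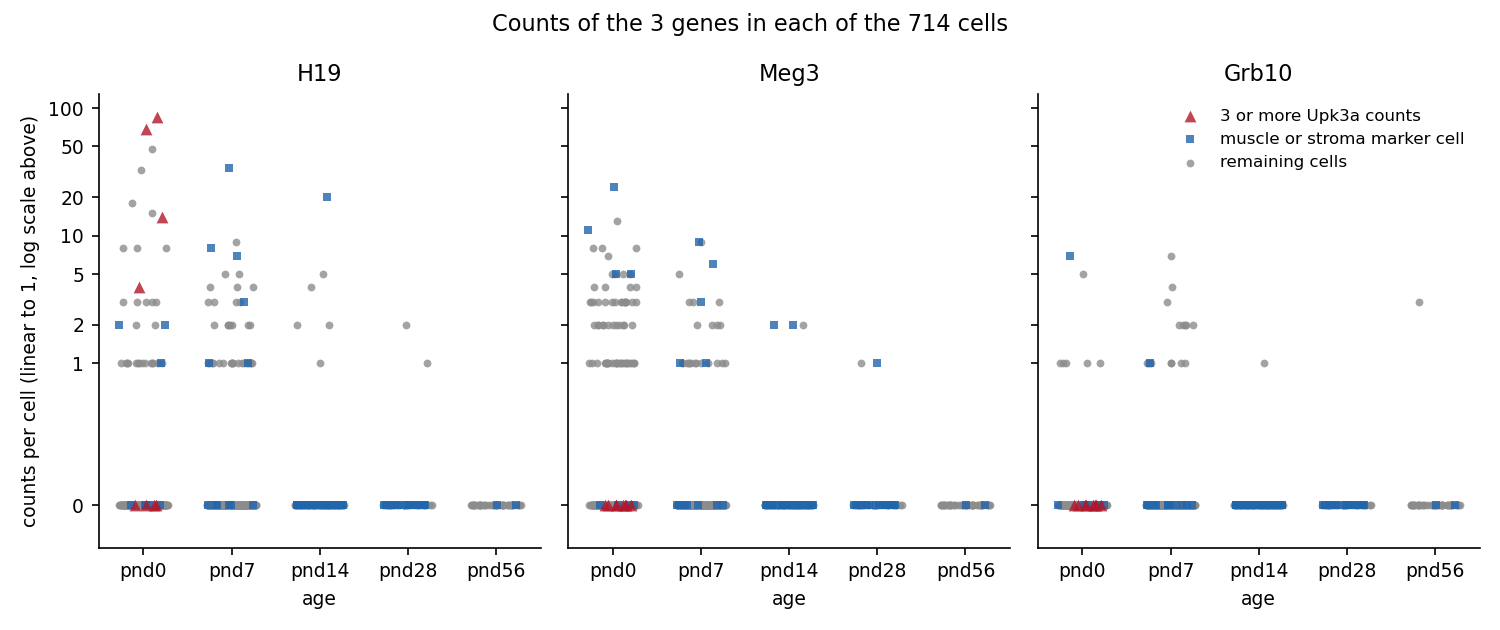
Counts of each gene in each of the 714 cells by age (vertical axis linear to 1 count, log scale above; points spread sideways for legibility). Triangles are pnd0 cells with 3 or more Upk3a counts, squares are smooth muscle or stroma marker cells and circles are the remaining cells; triangles hold the highest H19 counts, 85 and 69, and sit at 0 for Meg3 and Grb10.

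The 8 pnd0 cells with 3 or more Upk3a counts held 49.4% of the H19 counts of that age. They were at 84.5 [72.4, 98.1] counts per 10000 of H19, against 3.13 [2.69, 3.63] in all other pnd0 cells, a 27-fold higher level (log2 interval [4.44, 5.07]). The log2 ratio was 3.99 without the cell of the largest count and 3.93 without the second block. H19 was present in 4 of these 8 cells, with 85, 69, 14 and 4 counts, and had no count in the other 4, so the group is not uniform. The same order held in both blocks, with H19 at 26.9 in the 3 Upk3a cells, all of it in 1 of them, against 1.76 in the other cells of the first, and at 104.4 in 5 Upk3a cells against 4.59 in the second. By share of cells the groups overlapped, at 50% [15.7, 84.3] of Upk3a cells and 18.8% [13.1, 25.6] of the others.

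Meg3 had no count in any of the 8 Upk3a cells, against 220 counts in 70 of the other pnd0 cells (42.4%). Their median depth was 2434 counts against 3068, and 0 of 8 allows a share of up to 37.5%. With the 0 set to the floor of 3 counts over the 8 cells, Meg3 was at least 2.65-fold lower than the 3.91 counts per 10000 of the other cells. At equal depth that log2 bound of −1.41 was −0.66, and the 3 Upk3a cells of the first block alone were too shallow for a bound. Grb10 was at 0 in the 8 cells and had a count in 7 of the others (4.24%), and the 20350 counts of the Upk3a cells were too few for a comparison.

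Krt7, a keratin of simple and urinary epithelia, was at 86.5 in the Upk3a cells against 6.65 counts per 10000 in the others, and Adh1, an alcohol dehydrogenase, at 43.7 against 0.534. Psca, a surface antigen of bladder and other epithelia, had 7 counts in 3 of the 8 cells and 1 count in the others. Upk1b and Krt19, also on the list of urothelial markers, had 0 counts in the 8 cells, against 1 and 11 counts in the others. A 0 there allows up to 1.47 counts per 10000, above the 0.0178 and 0.196 of the others, so neither is shown to be lower. Upk3b, Pparg and Foxa1 of that list had 7, 2 and 1 counts in the 8 cells, against 52, 4 and 1 in the others. Their levels were higher in the 8 cells, at 3.44, 0.983 and 0.491 against 0.925, 0.0711 and 0.0178 counts per 10000. Those of Pparg and Foxa1 rest on counts within the floor of 3, and 6 of the 7 Upk3b counts lay in 1 cell. Epcam had counts in 1 of 8 (12.5% [0.316, 52.65]), against 52.7% [44.8, 60.5] of the others. The Epcam level was 3.44 [1.38, 7.09] against 3.75 counts per 10000. Smooth muscle and stroma markers were at 0 in all 8 cells, and erythroid markers were at 1.97 in them against 155.7 in the others. Outside pnd0 no cell of the study held an Upk3a count, so the later ages hold no such cell to set beside them.

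Of the imprinted genes listed, besides H19, those with counts in the Upk3a cells were Gnas (21 counts), Ppp1r9a (14), Cd81 (11), Tssc4 (4), Mcts2 (3), Airn (2) and Atp10a (1). In counts per 10000, Gnas was at 10.3 against 19.2 in the others and Cd81 at 5.41 against 7.95. Ppp1r9a was higher, at 6.88 against 1.42, with its counts in 2 cells, and Tssc4 was at 1.97 against 0.605. Mcts2, Airn and Atp10a were at 1.47, 0.983 and 0.491 against 0.196, 0.694 and 0.0178, each from 1 cell and within the floor of 3 counts. Nnat and Inpp5f were at 0 in the 8 cells, against 1.44 and 1.33 counts per 10000 in the others, and there a 0 allows up to 1.47, so neither is shown to be lower in them.

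H19-rich cells were also found below the Upk3a threshold. The cell just inside it, with 3 Upk3a counts, had no H19, and of the cells just outside it, with 2 counts, one had 33 H19 and 11 Adh1 counts and the other no H19. The pnd0 cell with the third highest H19, 48 counts, had no Upk3a count but 20 of Krt7 and 3 of Adh1. Chosen after these values were seen, Adh1 was set against H19 in the pnd0 cells outside the Upk3a group: it had a count in 4 of the 7 cells with 5 or more H19 counts and in 8 of those with fewer (5.06%), at median depths of 2002 and 3074 counts. Wnt7a, a marker of the uterine lining, had counts in 1 of these 7 cells (14.3% [0.361, 57.9]). It had counts in 64 of those with fewer H19 counts (40.5% [32.8, 48.6]), so the intervals overlapped and a lower share is not shown.

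Without the Upk3a cells H19 was at 3.13 counts per 10000 at pnd0, and the pnd7 over pnd0 log2 ratio was −0.83 [−1.17, −0.49], no longer a 2-fold difference. Meg3 was at 3.91 at pnd0 without them, close to its 3.78 in all cells.

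**Figure D3:**
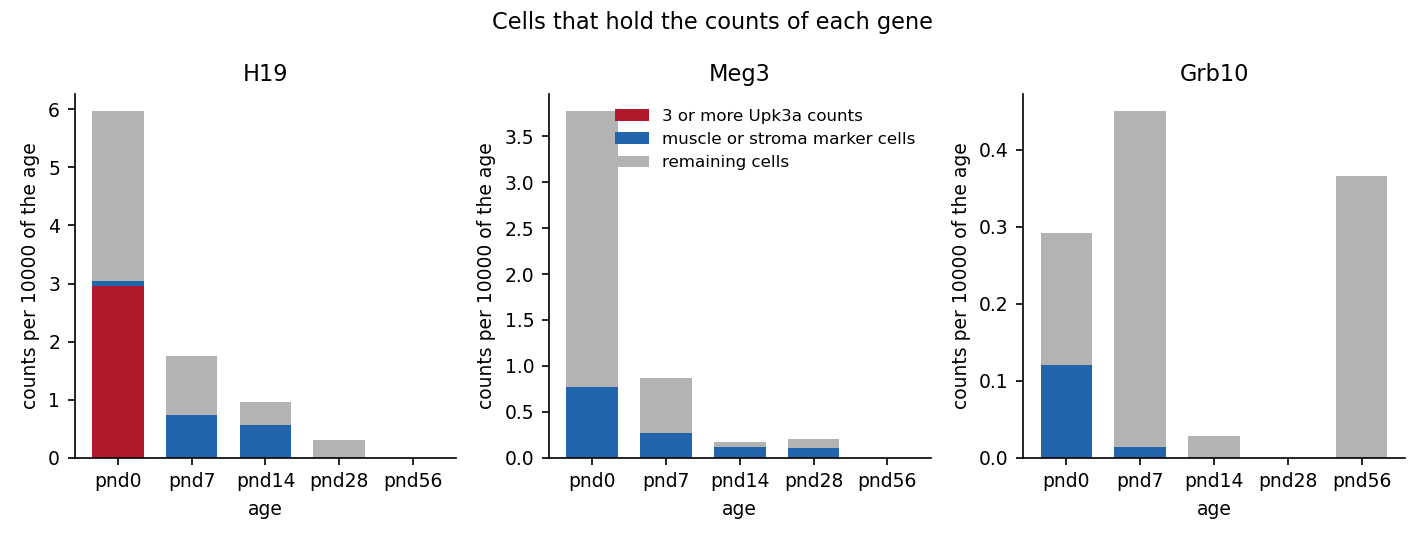
Levels of the 3 genes by age, in counts per 10000 of the age's total, split by the cells that held the counts: pnd0 cells with 3 or more Upk3a counts, smooth muscle or stroma marker cells, and the remaining cells. Upk3a cells held 49.4% of the H19 counts at pnd0, and marker cells held 54 counts of H19 at pnd7 and 20 of 34 at pnd14.

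Marker cells held part of the counts of the 3 genes, at pnd7 and pnd14 mostly single cells for H19. Of the smooth muscle list 8 of 12 genes have a row, without the defining Acta2 and Myh11, and their summed counts were 0.00704% of all counts at pnd0, 0.0191% at pnd7, 0.285% at pnd14, 0.130% at pnd28 and 0.0110% at pnd56. For the stroma list, with 14 of 17 genes, these were 0.0141%, 0.0180%, 0.0912%, 0.340% and 0.313%. The erythroid list, with 6 of 10 genes, stood at 1.503%, 0.0327%, 0.0268%, 0.0218% and 0.00244%, so it was lower at pnd7 than at pnd0 as H19 and Meg3 were, and its part in their levels was not tested. Marker cells held 5, 54 and 20 H19 counts at pnd0, 7 and 14, and 45, 20 and 4 Meg3 counts. At pnd0 H19 was at 1.75 [0.569, 4.09] counts per 10000 in the 8 marker cells and at 6.19 [5.55, 6.88] in all other cells, Upk3a cells included. Without Upk3a cells the others were at 3.20 [2.74, 3.72], which overlaps the interval of the marker cells. By share, 37.5% of marker cells and 19.4% of all others had an H19 count. Meg3 was at 15.8 [11.5, 21.1] in marker cells against 3.16 [2.71, 3.66] in the others. Of the 45 marker cell counts 24 lay in 1 cell, and the shares overlapped, at 50% [15.7, 84.3] and 40% [32.5, 47.9]. At pnd7 H19 was at 12.8 [9.60, 16.7] counts per 10000 in the 12 marker cells, against 1.09 [0.854, 1.36] in the remaining cells, and Meg3 at 4.73 [2.89, 7.31] against 0.637 [0.463, 0.855]. Of the 54 H19 counts 34 lay in 1 of these 12 cells, which also held 9 of the 20 Meg3 counts. At pnd14 all 20 H19 counts lay in 1 of 44 marker cells (2.27%), against 5 positive cells among the others (3.88%). Their part in the differences between ages was not tested beyond the values that follow.

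With Upk3a and marker cells both left out, H19 was at 3.20, 1.09, 0.539, 0.457 and 0 counts per 10000 at the 5 ages, and Meg3 at 3.28, 0.637, 0.0770, 0.152 and 0. The pnd7 over pnd0 log2 ratio of H19 was then −1.56 [−1.97, −1.16]. Grb10, of which marker cells held 7 counts at pnd0 and 1 at pnd7, was at 0.187, 0.463, 0.0385, 0 and 0.399. For each of the 3 genes the levels thus stood in the same order over the first 3 ages as in all cells. The cells with the most H19 at pnd14 (20 counts) and at pnd7 (34 counts) were both marker cells, with 22 and 6 counts of smooth muscle markers. Without this pair of cells the pnd14 over pnd7 log2 ratio of H19 was −1.71.

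Of 61 listed imprinted genes 36 have a row. Without H19, Meg3 and Grb10, 2 of 18 measured genes were at least 2-fold lower at pnd7 than at pnd0 and none was higher, with a median log2 ratio of −0.13, where 7.61% of all measured genes were lower, so their share was near the background. At pnd14 against pnd7, 3 of 16 were lower and 1 higher (median −0.18, background 14.3% lower). At pnd28 against pnd14, 2 of 9 were lower and 2 higher (−0.35, background 23.2% lower), and at pnd56 against pnd0 3 of 14 were lower and 1 higher (−0.67, genes at 0 entered at their bound, background 27.4% lower). The 3 that were lower at pnd56 were Nnat (a bound of −1.92), Tssc4 (−1.42 [−4.51, 0.53]) and Plagl1 (−1.42 [−6.79, 1.24]), and the intervals of Tssc4 and Plagl1, with 2 and 1 counts at pnd56, reach no change. The one that was higher was Dcn (3.78 [2.83, 4.79]).

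Among genes read from the paternal allele, Nnat, a small membrane protein of developing tissues, was at 1.39, 0.805, 0.170, 0 and 0 counts per 10000 at the 5 ages, 4.75-fold lower at pnd14 than at pnd7 (log2 ratio −2.25 [−3.75, −1.04]). Dlk1, a transmembrane protein of the Notch ligand type encoded beside Meg3, was at 0.584, 0.368, 0.113, 0 and 0, and Ndn, which encodes necdin, at 0.687, 0.505, 0.311, 0.104 and 0. All 3 ended at 0 in the adult cells as H19 and Meg3 did, where a 0 allows up to 0.366. At pnd7 their log2 ratios to pnd0 were −0.79 [−1.30, −0.29], −0.66 [−1.45, 0.11] and −0.44 [−1.13, 0.24], none of them a 2-fold difference. Rian, a non-coding RNA of the Meg3 domain read from the maternal allele, had 12, 12, 1, 1 and 0 counts.

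The other genes at least 2-fold lower at pnd7 than at pnd0 were Airn, the antisense RNA of the Igf2r locus (log2 ratio −1.10 [−1.90, −0.34]), and Blcap (−1.12 [−2.34, 0.03]). At pnd14 against pnd7 they were, beside Nnat, Dlk1 (−1.71 [−3.68, −0.18]) and Igf2r, a receptor that clears IGF2 (−1.22 [−2.78, 0.07]). At pnd14 all 4 Dlk1 counts and 5 of the 6 Igf2r counts lay in marker cells. Dcn was higher at pnd14 than at pnd7 (2.69 [2.01, 3.42]) and at pnd28 than at pnd14 (3.23 [2.83, 3.63]). It encodes decorin and is itself on the stroma list, so the stroma sums given above include its counts. At pnd56 Dcn was at 3.54 counts per 10000 against 19.8 at pnd28, while the stroma sum was at 0.313% against 0.340%. Mest, a hydrolase gene read from the paternal allele, was higher at pnd28 than at pnd14 (1.23 [0.15, 2.26]). Tssc4 and Airn, the lower ones there, had 2 and 1 counts at pnd28 against 29 and 20 at pnd14.

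Several other genes of the imprinted lists were flatter, and whether each is imprinted in this epithelium was not measured. Gnas, the stimulatory G protein subunit, was at 18.9, 21.7, 15.9, 13.3 and 11.8 counts per 10000, and the tetraspanin Cd81 at 7.86, 6.70, 6.24, 6.34 and 7.82. Inpp5f, a phosphatase gene, was at 1.29, 1.47, 1.78, 1.04 and 1.59, and Ppp1r9a, a phosphatase regulator gene, at 1.61, 1.54, 1.33, 1.04 and 0.977. At pnd56 Cd81 differed from pnd0 by a log2 ratio of −0.01 [−0.41, 0.37], against −4.03 for H19 and −3.37 for Meg3 with their 0 at the floor.

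Lower counts gave Kcnq1, a potassium channel gene, at 0.549, 0.846, 0.847, 0.623 and 0.488, Mcts2 at 0.240, 0.437, 0.395, 0 and 0.244, and Plagl1, a zinc finger gene, at 0.326, 0.396, 0.339, 0 and 0.122 counts per 10000. Slc22a18, a transporter gene, was at 0.841, 0.437, 0.254, 0.104 and 0.488 and Tssc4 at 0.652, 0.573, 0.819, 0.208 and 0.244.

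**Figure D4:**
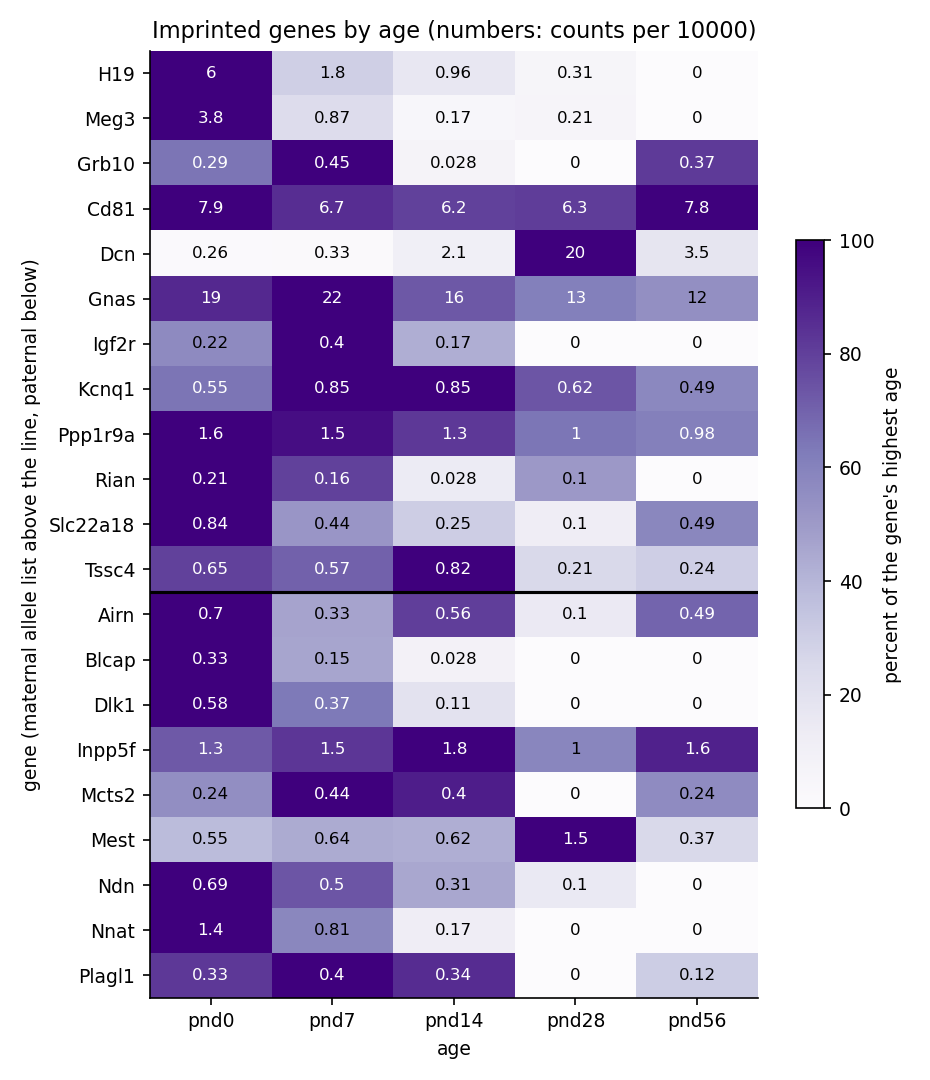
Level of the 21 listed imprinted genes with 20 or more counts, as the percentage of each gene's highest age (shade), with counts per 10000 printed in each box. Genes listed as expressed from the maternal allele are above the line and those from the paternal allele below it. H19, Meg3, Nnat, Dlk1 and Ndn are darkest at pnd0 and blank at pnd56, while Gnas and Cd81 keep over 50% of their highest level throughout.

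The protein-coding genes nearest the 3 on the chromosome followed several courses. Non-coding genes were left out of this order. Mrpl23, a mitochondrial ribosomal protein gene next to H19 on chromosome 7, was at 1.54, 1.97, 1.44, 2.08 and 1.71 counts per 10000, without the decline of H19. On its other side Igf2 has no row. On chromosome 12 Dync1h1, a dynein heavy chain gene 4 protein-coding genes beyond Meg3, was at 5.30, 4.94, 4.26, 3.64 and 5.01. Ppp2r5c, the nearest with a row on that side, had 19, 23, 30, 0 and 0 counts. Wdr25, a gene on the other side of Meg3, had 15, 2, 2, 1 and 1 counts. Beside Grb10 on chromosome 11, Cobl had 14, 9, 30, 2 and 1 counts and Ddc 1, 0, 1, 0 and 0. No gene that overlaps any of the 3 in the annotation has a row, and no source used here says whether the counting took strand into account.

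Among genes that act on imprints, none of 10 measured was 2-fold lower or higher at pnd7 against pnd0 (median log2 ratio 0.16), and 3 of 9 were lower at pnd14 against pnd7 (−0.26), where 7.61% and 14.3% of all measured genes were lower. Trim28, the corepressor that ZFP57 recruits, was at 6.35, 6.10, 4.35, 3.74 and 5.62 counts per 10000, and Ctcf, the insulator protein that binds the control region of H19 and Igf2, at 2.85, 3.17, 3.05, 2.39 and 2.56. Smc1a, a cohesin subunit, was at 3.59, 3.79, 3.39, 3.95 and 1.95, and Dnmt3a, a de novo DNA methyltransferase, at 3.17, 2.73, 2.85, 1.04 and 0.244. Of these 4, Dnmt3a alone was at least 2-fold lower at pnd56 than at pnd0.

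In the insulin and IGF pathway that Grb10 restrains, 25 of 32 listed genes have a row. Of those measured, 2 of 14 were at least 2-fold lower at pnd7 against pnd0, 1 of 15 was lower and 4 higher at pnd14 against pnd7, and 7 of 13 were lower at pnd56 against pnd0 (median log2 ratio −1.08). Of all measured genes, 7.61% were lower in the first of these comparisons, 14.3% lower and 10.7% higher in the second, and 27.4% lower in the last, with a median of −0.34. The list includes Pdk1, which encodes a pyruvate dehydrogenase kinase and is not a member of this pathway. Pdk1 is among the genes called in these comparisons, at log2 ratios of −1.82, 1.635 and −2.66. The 7 genes lower at pnd56 had only 1 to 7 counts each at that age. The one that was lower at pnd14 was Igfbp2, an IGF-binding protein, at 1.49, 1.57, 0.0282, 0.104 and 0.122 counts per 10000, over the same interval of ages in which Grb10 was lower. Named as the only one there, it was chosen after its values were seen. The most counted members were Nedd4, a ubiquitin ligase known to bind Grb10, at 13.2, 12.7, 9.38, 9.56 and 8.06, and Gigyf1, a GRB10-interacting protein, at 3.93, 3.998, 3.31, 2.49 and 3.66. Akt2, a kinase downstream of the receptors, was at 2.52, 2.92, 1.78, 1.66 and 0.855 and Grb7, a paralogue of Grb10, at 1.80, 1.84, 1.41, 1.56 and 2.81.

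Of the 11 genes linked to Meg3 through PRC2 and p53, none of 8 measured was 2-fold lower or higher at pnd7 against pnd0, where Meg3 was 4.33-fold lower, and 3 of 6 were lower and 1 higher at pnd56 against pnd0, where 27.4% of all measured genes were lower and 10.3% higher. The 3 genes lower at pnd56 had only 1 to 4 counts each at that age. Rbbp7, a histone-binding protein, was at 2.35, 2.05, 2.43, 3.64 and 1.59 counts per 10000, and Cdkn1a, the p21 target of p53, at 1.61, 1.28, 1.41, 4.16 and 3.79. Ezh2, the PRC2 methyltransferase, was at 1.87, 1.71, 1.16, 1.66 and 0.488, and its partner Jarid2 at 1.15, 1.45, 1.64, 1.25 and 0.244. None of these 4 was 2-fold lower at pnd7 than at pnd0, as Meg3 was.

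Of fetal RNA genes linked to H19 and let-7, 2 of 11 were measured at pnd7 against pnd0 and neither was 2-fold lower or higher. Hmga1, a chromatin protein, was at 5.36, 5.43, 2.57, 2.91 and 1.47 counts per 10000 and Igf2bp2, an RNA-binding protein, at 0.395, 0.546, 0.480, 0.208 and 0.122. Both were at least 2-fold lower at pnd56 than at pnd0, as 27.4% of all measured genes were, and Hmga1 also at pnd14 than at pnd7, as 14.3% were. For Igf2bp2 this rests on 1 count at pnd56 against 23 at pnd0, within the floor of 3 counts.

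Genes most like each of the 3 were sought by the Pearson correlation of log2(level + 0.1 counts per 10000) over the 10 blocks among 2010 genes with 200 or more counts. The blocks share 5 ages and differ in depth, so this is a description with no test. For H19 they were Tm2d3 (0.93), Cers3, a ceramide synthase (0.93), Supt20, a subunit of a histone acetylase complex (0.93), Fam129a (0.92) and Mta1, a deacetylase complex subunit (0.92). For Meg3 they were Wfdc2, a secreted whey acidic protein (0.93), Nedd4 (0.92), S100a6, a calcium-binding protein (0.91), Stra6, the retinol transporter (0.90), and Exosc9, an RNA exosome subunit (0.90). Stra6 was at 12.2, 10.5, 0.706, 1.25 and 0.611 counts per 10000, so unlike Meg3 it was near its birth level at pnd7.

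For Grb10, itself with 54 counts in all, they were Lhpp, a phosphatase (0.90), Psmc1, a proteasome ATPase (0.90), prohibitin Phb (0.90), Prpf8, a spliceosome protein (0.87), and Phykpl (0.86). H19 and Meg3 had an r of 0.76 with each other and of 0.47 and 0.41 with Grb10. Dlk1, below the 200 counts asked for, had an r of 0.89 with H19 and 0.84 with Meg3.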

How the data were processed

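The table holds whole-number counts per gene and cell, which the authors deposited for 714 cells of 960 sorted; each cell is a sample of its own. Per the submitters' processing notes the tools were TopHat and Cuffnorm and the genome build mm9, with no roles or versions; whether molecular identifiers were collapsed is not stated there, so intervals and floors cover counting error only. Values were taken as raw counts since each cell has its own total. Every column was mapped to its cell by title.

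Counts were summed over the cells of an age and divided by the sum over all genes. Levels carry exact Poisson intervals, shares exact Clopper-Pearson intervals and ratios exact conditional binomial intervals (95%), from Python 3.11.15, numpy 2.4.6, scipy 1.17.1 and pandas 2.3.3. A count of 0 was set to 3 counts for a bound, and no ratio was made where both ages had 3 counts or fewer. With 1 sample per age no p-value was computed. The ratio interval was tested on simulated Poisson counts per age. These had no spread between cells or blocks, so that test does not cover such spread. Shares at equal depth are the expectation of thinning cells to 1500 counts, computed exactly.

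The 3 genes, the gene lists and the markers were chosen with earlier results of these data known. Besides the 3 genes, the text names imprinted genes with 20 or more counts and up to 4 most counted genes of each other list. It also names protein-coding neighbours in the annotation and the 5 genes most like each of the 3, and exceptions are stated. Stroma marker cells were called without Vim. Names, neighbours and sequences come from GENCODE M21 and RefSeq (GRCm38), another build than the authors', so no coordinate of the count table is printed. Alternatives were median-of-ratios size factors, equal depth, means over cells, a filter on low counts, other thresholds and leaving out marker cells, Upk3a cells, the cell of the largest count of each age and each block; leaving out Upk3a and marker cells together, and marker thresholds of 3 and 10 in the ratios, were added after seeing the data.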

Additional observations from a re-analysis of the deposited data

How the results depend on the processing

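Over all alternatives of 13 results, 25 recomputed values moved beyond the interval of counting error, and no ratio whose interval left out no change turned its sign. Ratios within counting error did: that of Grb10 at pnd7 over pnd0 (0.63) was −0.25 without the third pnd7 block, that of Grb10 at pnd56 over pnd0 (0.33) was −0.19 without the first pnd0 block, and that of Meg3 at pnd28 over pnd14 (0.29) was −0.52 as means over cells, −0.40 without the first pnd14 block and −0.09 without the cell of the largest count of each age. For H19 at pnd7 over pnd0 (log2 ratio −1.76) the values were −2.42 at equal depth, −2.36 as means over cells, −2.51 without marker cells, −2.77 without marker cells called at 3 counts and −0.83 without Upk3a cells. Leaving out one block gave −2.485 (without the first pnd0 block) to −0.32 (without the second). For H19 at pnd14 over pnd7 (−0.87) they were −1.71 without the cell of the largest count of each age and −1.71 without marker cells called at 10 counts, and blocks gave −2.46 (without the first pnd14 block) to −0.39. For H19 at pnd56 over pnd0 (a bound of −4.03) they were −3.58 at equal depth, −3.63 without the cell of the largest count, −3.095 without Upk3a cells and −3.004 without Upk3a and marker cells, and blocks gave −4.75 to −2.59. For Meg3 at pnd56 over pnd0 (−3.37) they were −2.23 at equal depth, −2.98 without marker cells and −3.04 without both. For H19 in Upk3a cells over other pnd0 cells (4.755) they were 5.08 at a threshold of 2, 4.43 as means over cells and 3.99 without the cell of the largest count, and blocks gave 3.93 to 4.51. For Meg3 there (a bound of −1.41) they were −0.66 at equal depth and −0.91 without the first pnd0 block. The cause was not tested, except that bounds follow the depth left in the group at 0. The ratio of Meg3 ran between −2.44 and −1.94 at pnd7 over pnd0 and between −3.65 and −1.67 at pnd14 over pnd7. That of Grb10 at pnd14 over pnd7 ran between −4.39 and −2.95 where a count was left at pnd14. Leaving out the first pnd14 block or the cell of the largest count of each age left none, with upper bounds of −1.72 and −2.065. Marker cells were 11.3% of all cells, against 17.5% when called at 3 counts and 6.30% at 10.

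Median-of-ratios size factors shifted the ratios by 0.02 to 0.19 (log2) and moved no result. A further 9 alternatives gave no value, since both sides held 3 counts or fewer, a mean over cells was 0, or the bound for a count of 0 lay above the level it was set against. No paired analysis was possible because each age is 1 sample and the cell titles pair nothing. Depth limits the pnd28 and pnd56 values most, where 0 counts allow up to 0.312 and 0.366 counts per 10000.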
